A study of Drosophila palustris with 2 samples.

Results

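Drosophila palustris belongs to the quinaria group of fruit flies, and the reads of some of its gene models are shared between strands. The 121 models described here lost at least 10% of their reads when the strand of the reads was ignored. In each library they still had at least as many reads on their own strand as on the other. They are 0.603% of the 20053 models and were chosen by measured values, the 3 counts of each model in each library: reads on the sense strand, reads on the antisense strand, and reads counted without strand. A read counted without strand is given to no model when it touches exons of several, whichever strand they lie on. The loss is therefore the share of a model's sense and antisense reads, summed over both libraries, that was not assigned to it without strand; these reads are called lost reads below. Members had a loss of at least 10%, at least 10 sense reads and no more antisense than sense reads in each library, and a mean of at most 1000 CPM (reads per 1000000 sense reads). Of the 13134 models that met the other conditions, 121 (0.921%) also met the minimum loss. At any depth 355 models lost as much. Of these, 212 were left out for fewer than 10 sense reads in a library and 22 others because antisense reads outnumbered sense reads in a library, while the upper limit on CPM left out 0.

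Polyadenylated RNA of whole adult flies was sequenced to help annotate a draft genome of the species. The 2 libraries form 1 group and each was made from 1 µg of RNA from a pool of its own, 10 to 20 flies with males and females together. Flies were kept as stocks on food at room temperature; strain, age and any treatment are not given in the sources used here. Replicate 1 held 63649388 reads, of which 46610675 were sense reads of a model, and replicate 2 held 55800005 and 39026623. RNA from both sexes and all tissues was mixed, so a read cannot be traced to a sex or tissue. Genes carry locus tags alone, so no name or function is given, and gene coordinates were not used here. These reads had also been used to predict the models, so the annotation is not independent of them.

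As background, fly genomes are compact, and neighbouring genes that are transcribed toward each other often overlap at their ends. Transcripts of such neighbours carry complementary stretches, and in Drosophila melanogaster double-stranded RNA of this kind is cut by Dicer-2 into small interfering RNAs. A directional library keeps the strand of each transcript, and without it the reads of such a stretch cannot be given to either gene.

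The 121 models together held 39.4% of all lost-read assignments of the annotation in replicate 1 and 42.5% in replicate 2, where a read lost by 2 models is an assignment of each. They held only 0.279% and 0.323% of the sense reads. A single model, ACLKA6_018306, took 41.2% and 48.0% of the members' lost reads. Without it, the other members still held 23.2% and 22.1% of the lost-read assignments of the annotation. The median model lost 80 reads in replicate 1, with a range of 1 to 17886, and 69 in replicate 2, with a range of 1 to 22475. Lost reads were thus few in most members, and the shares of the least read members rest on very few reads.

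The losses were mostly small and a few were near complete. The median loss over both libraries was 18.2%, with 25% of models under 12.8% and 75% under 28.8%. It lay between 10% and 20% in 65 models, between 20% and 50% in 49 and at 50% or more in 7. These values describe how the models were chosen and were not tested. Just inside the minimum lay ACLKA6_011032 at 10.1%, ACLKA6_016649 at 10.4% and ACLKA6_007516 at 10.4%. Just outside it lay ACLKA6_016650 at 9.96%, ACLKA6_019057 at 9.85% and ACLKA6_000073 at 9.85%. ACLKA6_016649 and ACLKA6_016650 lost equal numbers of reads, 104 in replicate 1 and 66 in replicate 2, and fell on either side of the minimum.

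**Figure D1:**
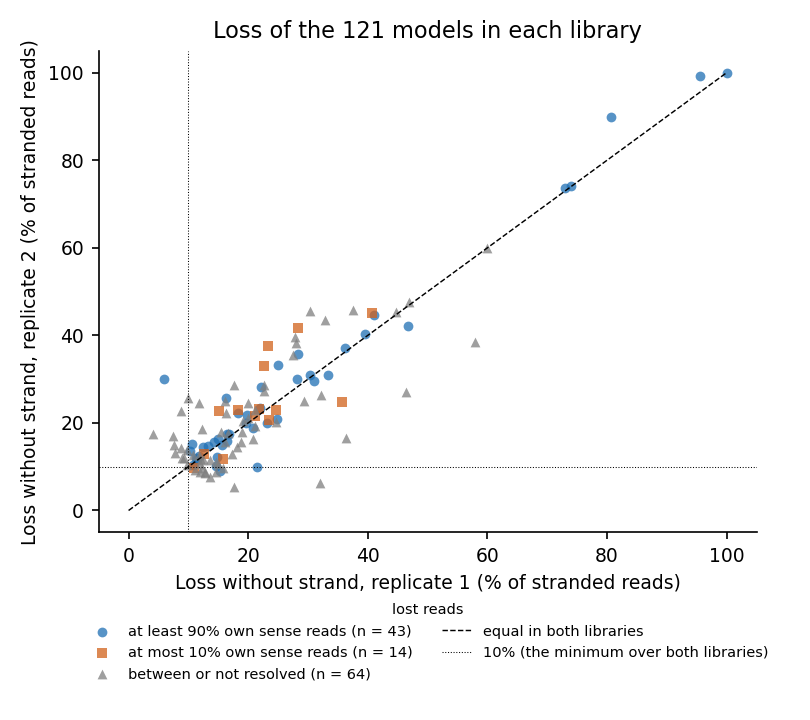
Loss without strand of each of the 121 models, replicate 1 on the horizontal and replicate 2 on the vertical axis, in percent of the sense and antisense reads of the model in that library. Each point is 1 model, coloured by the share of its own sense reads among the lost reads, and 98 of 121 models lie at 10% or more on both axes.

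In most models the losses in the 2 fly pools lay close together. The median was 18.1% in replicate 1 and 19.9% in replicate 2, and 98 of the 121 models lost at least 10% in each. The median difference between libraries was 3.72 percentage points and 80 models differed by less than 5 points. Among 82 members that were read 100 or more times on the sense strand in both libraries, 63 differed by less than 5 points. Across the 121 models the losses correlated with Pearson r = 0.910 and Spearman rho = 0.739. The points come from the same 2 libraries, and the models are not independent replicates. Members were chosen by the loss summed over these 2 libraries. The number of models at 10% or more in each and the correlations are therefore not independent of that choice. The scatter plot of the losses in each library shows most models at small losses and 7 spread from 50% to 100% over both libraries.

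For 92 of the 121 members (76.0%), a neighbouring locus tag had lost equal or nearly equal numbers of reads. When 2 models on opposite strands share a read and no other model touches it, both lose it, so an isolated pair loses equal numbers in each library. For 60 of the 121 members, exactly 1 model within 5 tags on either side had lost the same number of reads in both libraries. In another 32 the numbers were within 5% of each other in each library, in 15 of these by no more than 1 read. All 92 matched models were the very next tag, 46 with the tag before and 46 with the tag after. The match is read from counts and tag numbers alone, and that the 2 models overlap in the genome was not tested. Of the 60 equal matches, 48 had numbers of lost reads that no other model of the annotation shared. The other 12 lost at most 24 reads over both libraries, and numbers that small recur elsewhere. Of the 111 members with at least 10 lost reads, 53 had 1 equal neighbour within 5 tags, and of all 889 models with as many lost reads 450 (50.6%) had one, so equal neighbours were about as frequent among members as among all such models. With matches within 5% included, 563 of the 889 (63.3%) had 1 such neighbour. The same share of the 111 members is not given here, so the 76.0% of all members cannot be set against it.

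Each lost read of an isolated pair is a sense read of one model and an antisense read of the other. The lost reads of such a pair can therefore never exceed the antisense reads of both models together. All 58 pairs with equal numbers kept to this in both libraries, as the counting requires of isolated pairs, so it was not a test of the match. The antisense counts also bound where the lost reads came from. Antisense reads of the member limit how many of its lost reads lay on the other strand, and antisense reads of the neighbour limit how many were the member's own. The second bound holds only if the matched models form an isolated pair, which the counts alone do not establish. For members without a match, their sense reads set the second bound. The limits of 90% and 10% that sort the members below were chosen after the counts were seen.

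**Figure D2:**
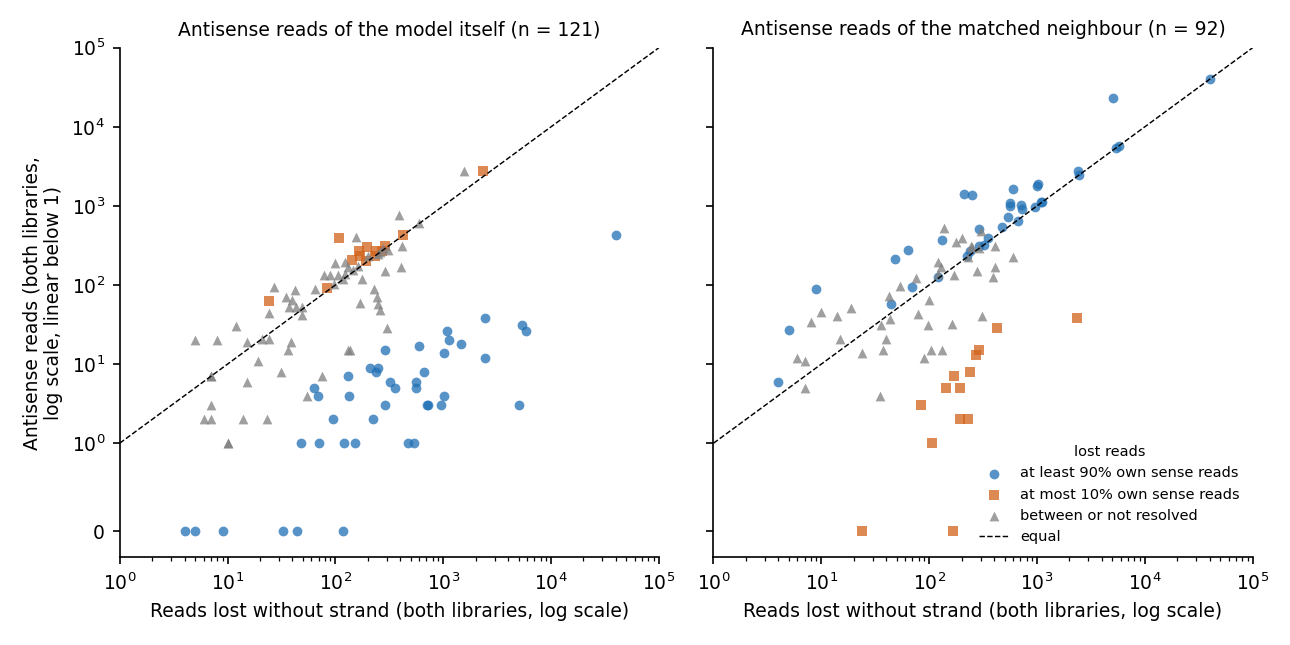
Antisense reads against lost reads, both summed over the 2 libraries on log scales, for the model itself (left, 121 models) and for its matched neighbour (right, 92 models). Blue points, whose lost reads were at least 90% own sense reads, lie far below the line of equality on the left and near or above it on the right. Orange points, with at most 10% own sense reads, do the reverse. The colours were set from these same counts, so the positions largely follow from the definition.

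The members fell into kinds that lost different reads. In 43 models, at least 90% of the lost reads were the model's own sense reads in each library. In 14 models, at most 10% were, so nearly all of their lost reads were antisense to them and sense to the neighbour. The other 64 lay between or could not be placed, and 22 of these had no matched neighbour. By simple majority, own sense reads prevailed in both libraries in 58 models and reads of the other strand in 24, while 39 could not be decided. Members without a match could be placed only on the side of own sense reads, as 7 of the 43 were. Their second bound is too high for the other side, so the numbers of the 2 sides cannot be compared evenly. Over all 121 models, at least 85.6% of the lost reads in replicate 1 and 86.6% in replicate 2 were the models' own sense reads. Without ACLKA6_018306 these lower bounds were 76.5% and 74.9%.

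The 43 models that lost their own sense reads had a median loss of 20.2%. Their unstranded count lay below the sense count, as the definition of the kind requires, with a median ratio of 0.801 and a range of 0 to 0.896. They held 83.9% and 85.1% of all the members' lost reads in replicate 1 and replicate 2. ACLKA6_018306, which is among the 43, held 41.2% and 48.0% by itself. The definition also keeps antisense reads few, with a median antisense share of 0.222% in replicate 1 and 0.217% in replicate 2.

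ACLKA6_018306 was the largest case. It averaged 649.5 ± 182.5 CPM (SD, n = 2), the highest level of the group. It kept 6636 and 8074 reads without strand, against 24261 and 30384 sense reads, and had 261 and 165 antisense reads. Its losses of 72.9% and 73.6% had overlapping 95% Wilson intervals, 72.4 to 73.5 and 73.1 to 74.1. The neighbouring tag, ACLKA6_018307, had 91 and 52 sense reads against 17790 and 22419 antisense reads, and no read at all without strand. Nearly all reads of that neighbour were thus antisense, and it lost 17881 and 22471 reads, within 5% of the 17886 and 22475 that ACLKA6_018306 lost.

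Other well-read members had the same form. ACLKA6_018105 kept 1193 and 854 reads without strand, against 4564 and 3272 sense reads, a loss of 73.9% and 74.0%. Its neighbour ACLKA6_018104 had 10 and 15 sense reads but 3373 and 2419 antisense reads, and kept 1 read without strand in each library. ACLKA6_019197 lost 2651 and 2712 reads of 7318 and 7266 sense reads, and its neighbour ACLKA6_019198 had no sense read and 2651 and 2713 antisense reads. ACLKA6_006913 lost 1059 and 1374 reads, and the antisense reads of ACLKA6_006914 numbered exactly 1059 and 1374, with no sense read. In these 3 pairs nearly all reads of the neighbour were antisense and were lost, in numbers that match the sense reads lost by the member.

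**Figure D3:**
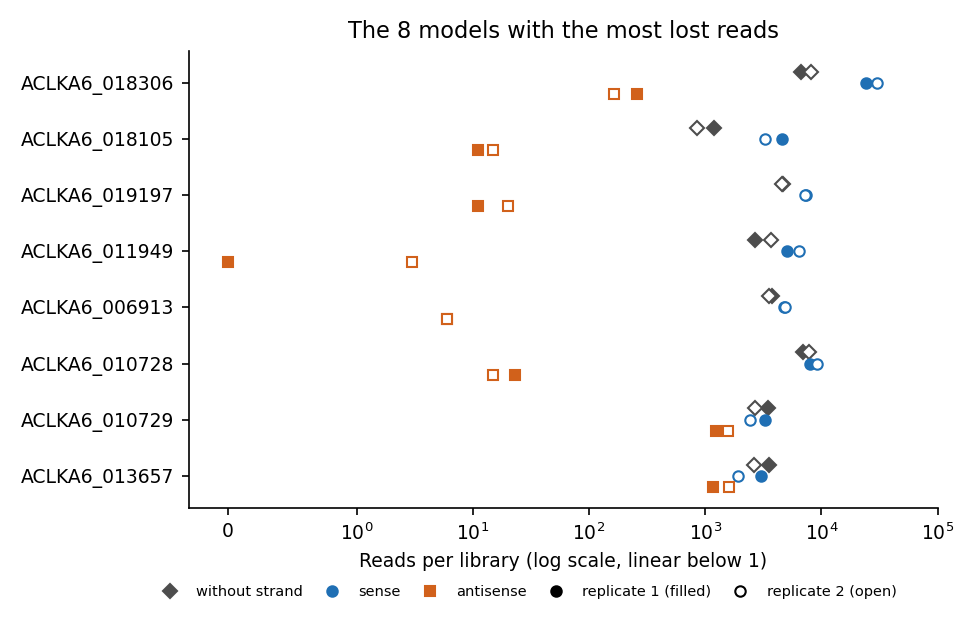
Reads per library on a log scale for the 8 models with the most lost reads: counts without strand (grey diamonds), sense reads (blue circles) and antisense reads (orange squares), replicate 1 filled and replicate 2 open; symbols of near-equal replicates overlap. In the first 6 models the count without strand lies left of the sense count and antisense reads are few; in ACLKA6_010729 and ACLKA6_013657 it lies right of it, and antisense reads exceed 1000 in each library.

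Some matched models had a neighbour read mainly on its antisense strand, and no share over all models is given here for comparison. In 11 of 92 the neighbour had no sense read in either library, a count that leaves room for up to 3 reads in each. All 11 members beside such a neighbour had unstranded counts below their sense counts in both libraries, with losses of 11.5% to 100%. The lower counts largely follow from the counting, since an isolated pair of this form can share only sense reads of the member. Their neighbours had 32 to 2651 antisense reads in replicate 1 and 25 to 2713 in replicate 2. Of these neighbours, 4 kept no read without strand, and the median neighbour lost 88.8% of its reads. In another 25 the neighbour had sense reads, but fewer than antisense reads in both libraries. Their medians were 4 and 2 sense reads against 67 and 76 antisense reads, and 19 of the 25 members beside them had fewer reads without strand in both libraries. In 39 of the 92 the neighbour lost under 10% of its own reads, among them 2 neighbours above 1000 CPM. The median member beside the other 37 had 341 and 300 sense reads, and the median neighbour 1600 and 1394.

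The near-complete losses were of this form too, at lower depth. ACLKA6_015903 had 23 and 21 sense reads and kept none without strand, a loss of 100% in both libraries (95% Wilson interval from 85.7 in replicate 1 and from 84.5 in replicate 2). Its neighbour ACLKA6_015902 had 0 sense reads and 32 and 25 antisense reads. ACLKA6_005674 kept 21 and 2 reads without strand, against 470 and 274 sense reads. The neighbour, ACLKA6_005675, had 1 and 2 sense reads against 565 and 355 antisense reads. ACLKA6_013357 kept 12 and 8 of its 61 and 79 sense reads, beside ACLKA6_013358 with no sense read and 50 and 75 antisense reads. In all 3, the count without strand was a small part of the sense count or 0. Losses nearer to 50% were those of ACLKA6_003809, with 32 and 16 reads without strand against 74 and 24 sense reads, and ACLKA6_008280, with 16 and 10 against 31 and 15 and no matched neighbour.

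Not every model of this kind stood beside a poorly read one. ACLKA6_011949, at 135 ± 39.5 CPM, lost 2345 and 2694 of its 5014 and 6376 sense reads. Its neighbour ACLKA6_011948 had 15104 and 20961 sense reads and lost only 8.54%. That neighbour also had 9064 and 13876 antisense reads, far more than the 2345 and 2694 that both lost. Most of its antisense reads were therefore not shared with ACLKA6_011949. Among the 36 matched models that lost their own sense reads, the neighbour had more sense reads than the member in 8.

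The 14 models whose lost reads were antisense kept nearly their full sense count without strand, which follows from how the kind is defined. Their median loss was 22.4%, yet the unstranded count over the sense count was 0.997 to 1.47, with a median of 1.07. Their antisense share, which the definition also raises, had a median of 28.1% in replicate 1 and 34.3% in replicate 2. Summed over both libraries, all 14 had fewer sense reads than their neighbour, and 13 did in each library. The neighbour's sum was higher by a median of 3.73 times, with a range of 1.01 to 17.0 times. These are ratios of reads and not of transcripts, since gene lengths were not used here.

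ACLKA6_011434 had the largest loss among these 14. It had 341 and 230 sense reads and 243 and 190 antisense reads, and lost 238 and 189 reads. Its neighbour ACLKA6_011433 had 3288 and 4733 sense reads and only 13 and 16 antisense reads. Without strand ACLKA6_011434 kept 346 and 231 reads, close to its sense count in both libraries. ACLKA6_001679 kept more reads without strand than on its own strand, 554 and 359 against 380 and 242 sense reads. It had 242 and 156 antisense reads and lost only 68 and 39, so most of its antisense reads were counted for it without strand.

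**Figure D4:**
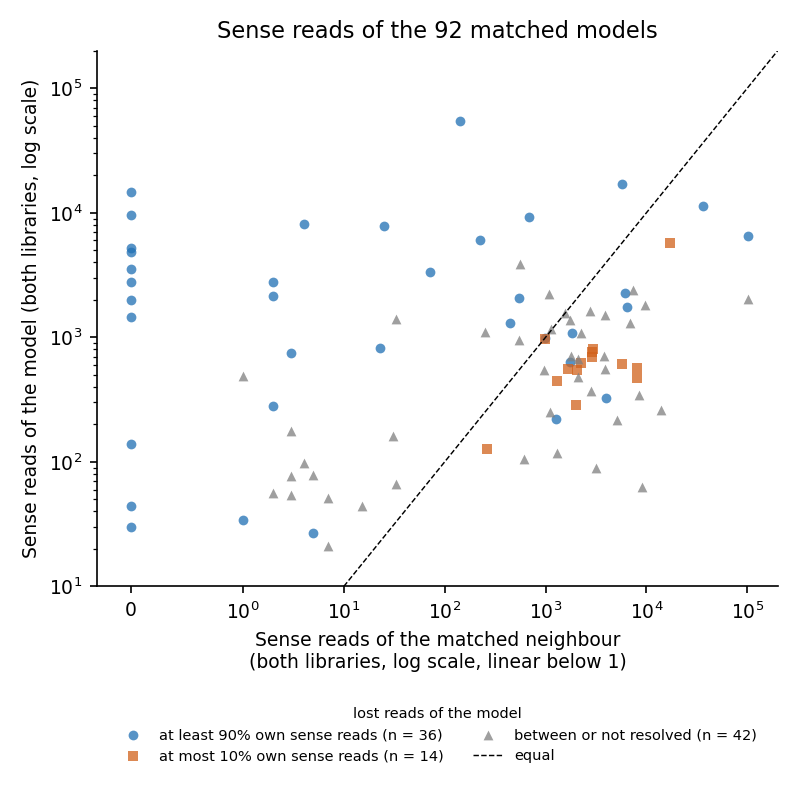
Sense reads of the 92 matched models (vertical axis) against those of the matched neighbour (horizontal axis), summed over both libraries on log scales; the dashed line marks equal numbers. All 14 models with at most 10% own sense reads among the lost reads lie on the side where the neighbour has more, and 11 of the 36 with at least 90% own sense reads lie at 0 sense reads of the neighbour. Beside such a neighbour, a member of an isolated pair can lose only its own sense reads.

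In 8 of the matched pairs both models were members, which accounts for 16 of the 92 matches. With unmatched neighbours included, 22 members had another member as the next tag. ACLKA6_010728 and ACLKA6_010729 were the best read of these pairs, at 204 ± 46.6 and 66.1 ± 6.10 CPM (SD, n = 2). ACLKA6_010728 kept 6919 and 7878 reads without strand against 7956 and 9231 sense reads, so it lost its own reads. ACLKA6_010729 had 1241 and 1564 antisense reads and kept 3500 and 2661 reads without strand against 3283 and 2412 sense reads. ACLKA6_010728 lost slightly more reads than ACLKA6_010729 did, 1060 and 1368 against 1024 and 1315. The strand of the shared stretch was more even in ACLKA6_011031 and ACLKA6_011032. Own sense reads of ACLKA6_011031 made up between 28.1% and 49.7% of its lost reads in replicate 1 and between 19.8% and 34.0% in replicate 2.

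Without strand, 70 of the 121 models had fewer reads than their sense count in both libraries, 43 had at least as many in both and 8 differed between libraries. The unstranded count of both libraries was under 0.5 of the sense count in 6 models, 0.5 to 0.8 in 20, 0.8 to 0.9 in 35 and 0.9 to 1 in 12. In 27 it was equal to the sense count or up to 1.1 times as high, and in 21 at least 1.1 times as high. The highest ratios were those of ACLKA6_010059, with 22 and 21 reads without strand against 15 and 13 sense reads, of ACLKA6_001679, and of ACLKA6_010781, with 103 and 124 against 68 and 91. A loss of at least 10% of the stranded reads thus went with counts without strand both below and above the sense count.

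The antisense share of the members was higher than elsewhere, by counts that the choice of members also used. Its median was 4.24% in replicate 1 and 7.44% in replicate 2, against 0.213% and 0.212% in the 13013 models that met the other conditions with a smaller loss. Antisense reads made up over 5% in 58 and 67 of the 121 members, and in 7.97% and 9.05% of the others. They made up over 25% in 29 and 33 members. Not all antisense reads of the matched pairs were shared with the neighbour. Over the 58 pairs of equal numbers, lost reads made up 54.5% of the antisense reads of both models in replicate 1 and 44.0% in replicate 2. The 2 libraries averaged 49.2% ± 7.42 (SD, n = 2). The pair of ACLKA6_011948 and ACLKA6_011949 weighed heavily, and without it the shares were 72.9% and 71.6%. The median pair stood at 62.7% and 60.3%.

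The other 29 members had no single model within 5 tags whose lost reads were within 5% of theirs in each library. Some came close. ACLKA6_016080 lost 23 reads over both libraries, and the largest number within 5 tags was 24. The neighbouring tags ACLKA6_013656 and ACLKA6_013657 lost 1453 and 1556. In members with few lost reads, a difference of 1 read can exceed 5%. In 8 of the 29 the lost reads of 3 models within 5 tags added up exactly in both libraries, as where 1 model overlaps 2 others. ACLKA6_016573 and ACLKA6_016574, both among the 8, belonged to the same sum. The number of such sums over all models is not given here for comparison. ACLKA6_000567 lost 66 and 51 reads, the sum of 17 and 5 in ACLKA6_000566 and of 49 and 46 in ACLKA6_000568. ACLKA6_003737 lost 243 and 243, the sum of 116 and 141 in the member ACLKA6_003738 and of 127 and 102 in ACLKA6_003736. The smallest sums are ambiguous, since ACLKA6_010059, with 3 and 2 lost reads, belonged to 2 such sums. Some of the other sums also held a part of at most 3 lost reads in each library. In 4 of the 29, no model within 5 tags had lost at least 50% as many reads. ACLKA6_018979 is the largest of these: it had 764 and 916 sense reads, the same numbers without strand, and lost 62 and 187 reads, as many as it had antisense reads. A read that touches 2 models of the same strand is counted for neither of them by strand, so such a partner shows no loss; whether this applies here was not tested.

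The median member was read at a lower level than the median of the other models. Their median was 6.60 CPM, with a range of 0.246 to 649.5 CPM, and 25% lay under 1.89 and 75% under 19.5 CPM. The 13013 other models had a median of 24.3 CPM. The loss divides lost reads by sense and antisense reads, so the same number of lost reads gives a larger loss in a less read model. The levels of members and others are therefore not independent of how members were chosen. Below 1 CPM lay 22 members, from 1 to 10 CPM 52, from 10 to 100 CPM 40 and above that 7. The classes under 1 and from 1 to 10 CPM thus held 18.2% and 43.0% of the members, against 6.55% and 23.8% of the others. In whole-body RNA, fewer cells of a type and less RNA per cell cannot be told apart, and CPM is not corrected for transcript length. The models that lost their own sense reads had a median of 20.8 CPM, the 14 that lost antisense reads 6.89 CPM and the other 64 a median of 3.91 CPM. Where few reads were lost, 1 antisense read can decide the kind, so these medians also depend on depth. Levels of different models are reads and not numbers of transcripts.

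The sense counts of the members differed between the fly pools about as often as those of all models. Of the 121 members, 5 (4.13%) were called between the libraries, against 4.25% of all 13702 models tested. A call needed at least 2-fold and a Benjamini-Hochberg adjusted p under 0.05 in a two-sided exact binomial test given the total of each model. Of the 5, 2 were higher in replicate 1, a direction called in 1.57% of all models, and 3 in replicate 2, called in 2.69%. The p-values concern these 2 libraries alone, with no replicate check. All 5 lay under 10 CPM, and no member differed by over 4-fold. Within 1.5-fold lay 73.6% of the members and 81.0% of the others, and the median absolute difference was 0.34 and 0.22 on the log2 scale. The part of the members' lower level in this wider spread was not tested.

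The farthest apart was ACLKA6_016080, with 73 and 21 sense reads. Replicate 1 over replicate 2 was 1.46 on the log2 scale, with an exact 95% interval from 0.77 to 2.26 (adjusted p = 2.68e-05 by the exact binomial test). ACLKA6_003809 had 74 and 24 sense reads, 1.29 on that scale (0.63 to 2.04). Both were thus higher in replicate 1 by over 2-fold, though the intervals reach below that. Higher in replicate 2 were ACLKA6_010782, with 31 and 58 sense reads (-1.20, interval -1.89 to -0.56), ACLKA6_005745, with 20 and 36 (-1.14), and ACLKA6_011667, with 141 and 231 (-1.02). All but ACLKA6_011667 had fewer than 100 sense reads in each library. These intervals cover counting error only.

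**Figure D5:**
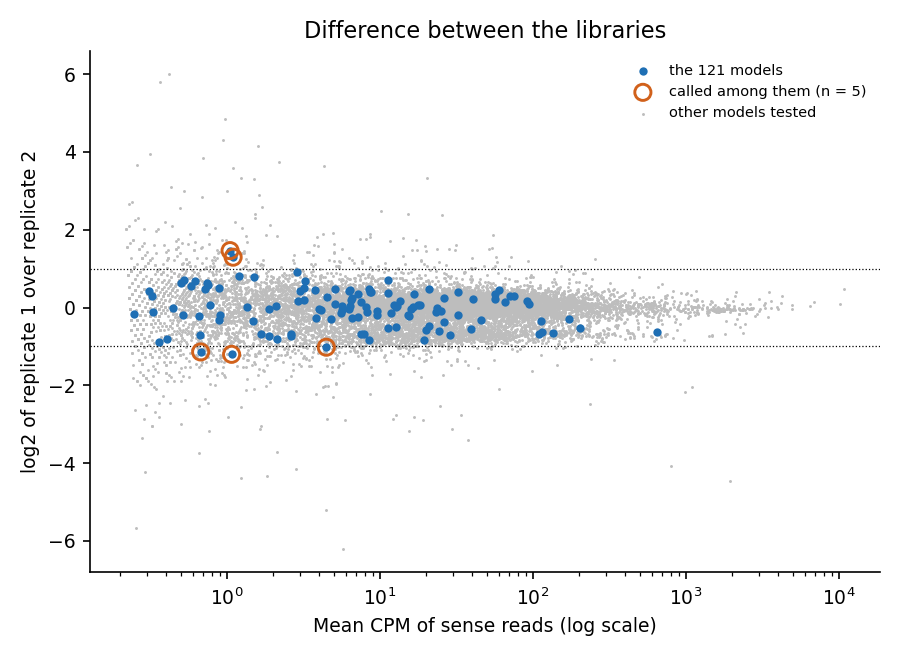
Log2 of replicate 1 over replicate 2 (sense reads, TMM-scaled) against mean CPM on a log scale for the 13702 models tested; blue points are the 121 models, grey points the others and dotted lines mark 2-fold. The 5 called members, circled, lie under 10 CPM, and no member reaches 4-fold.

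Counting without strand also moved the ratio between the pools, though little in most members. The log2 ratio of replicate 1 over replicate 2 shifted by a median of 0.05 in size, by less than 0.1 in 81 models and by over 0.5 in 6. The largest shift was that of ACLKA6_005674, whose log2 ratio was 2.81 without strand, from 21 and 2 reads, and 0.47 on the sense strand, from 470 and 274. Its sense reads were higher in replicate 1 by 1.38-fold. The ratio without strand rests on few reads. The losses of this model were 95.55% in replicate 1 and 99.27% in replicate 2. They were not called different (two-sided Fisher's exact test of lost and kept reads, adjusted p = 0.277).

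The loss itself differed between the libraries in 6 members (two-sided Fisher's exact test of lost and kept reads, Benjamini-Hochberg adjusted p under 0.05 and at least 5 percentage points). Over all 4063 models tested the share called was 0.172%, or 7 models. A difference of 5 points needs a loss of about that size, and only 256 tested models had a loss of 5% or more, so the members' count cannot be read against that share. All 6 lost more in replicate 2, the direction of all 7 models called. Without the minimum difference 7 members were called, and 0.566% of all models; the added one, ACLKA6_011949, lost more in replicate 1, with 46.8% against 42.2%. Of the 121 members, 72 lost a larger share in replicate 2 and 47 in replicate 1.

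Among the 6 called members, ACLKA6_009315 differed most, with a loss of 23.3% in replicate 1 and 37.5% in replicate 2, a difference of -14.2 points (Fisher's exact adjusted p = 0.00288). Its own sense reads numbered 340 and 205, while those of its neighbour ACLKA6_009314 numbered 929 and 1134. ACLKA6_010729 lost 22.6% and 33.1% (-10.4 points, Fisher's exact adjusted p = 2.90e-23), with 3283 and 2412 sense reads of its own and 7956 and 9231 of its neighbour. These are raw counts, and the libraries differed in depth. After TMM scaling, replicate 1 over replicate 2 was 0.42 on the log2 scale in ACLKA6_009315 and -0.60 in its neighbour. It was 0.13 in ACLKA6_010729 and -0.53 in its neighbour. Whether these ratios bear on the losses was not tested. ACLKA6_000887 lost 11.8% and 24.6% (-12.9 points), beside ACLKA6_000888, also a member, with 445 and 513 sense reads. ACLKA6_018979 lost 7.51% and 17.0% (-9.45 points), and in each library it lost as many reads as it had antisense reads. In the other 2, ACLKA6_013657 and ACLKA6_006913, the losses were 16.1% and 24.9%, and 22.1% and 28.2%. The Fisher test counts reads within 2 libraries and has no replicate check.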

How the data were processed

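Per the labels' protocols, poly(A) RNA was selected and the libraries made by a directional kit. For each library the authors deposited raw counts per gene model, without strand and for the forward and the reverse strand. The submitters' processing notes name fastp and STAR 2.7.11b, and models came from BRAKER 3.0.6, per the series' design text. Settings, the genome build used for counting and whether models include untranslated ends are not given in the sources used here. "Read" stands for a read or a read pair.

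The reverse-strand column was taken as sense, as the kit implies. The 4 entries naming no gene (26.8% of replicate 1 and 30.1% of replicate 2) were kept out. Lost reads are sense plus antisense minus unstranded reads. CPM used the total of sense reads; tests between libraries used TMM-scaled totals (edgeR 4.0.16, R 4.3.3) and SciPy 1.17.1. The binomial test took models whose sense reads reached 10 in both libraries or 20 in sum, with 0.5 added to counts for ratios. The Fisher test took models that reached 10 in both and had lost a read. Both tests were checked on simulated data. DESeq2 1.42.0 size factors were an alternative.

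The members, lists and rules were chosen with earlier results of these data known. Models are named if among the 8 largest losses, the 8 with the most lost reads, the 4 highest CPM, the 3 on either side of the minimum loss, the 3 highest and lowest ratios of unstranded to sense reads, up to 6 called between libraries or up to 4 called for their loss, or if neighbour to one of these. Outside the rule, ACLKA6_011434, ACLKA6_000567 and ACLKA6_003738 with their neighbours, and ACLKA6_016573 with ACLKA6_016574, were chosen after their values were seen. Intervals reflect counting error alone, because without molecular identifiers reads need not be separate molecules.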

Additional observations from a re-analysis of the deposited data

How the results depend on the processing

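Of 31 alternative values, 22 stayed within the tolerance (1.5 times for counts, 1 SD between libraries for shares) and 9 moved. The 121 members became 224 at a loss of at least 5% and 56 at 20%, and 125 to 127 with each library alone. The 60 members with a neighbour of equal lost reads became 92 within 5%, and 68 to 77 with each library alone. The median loss was 18.1% to 19.9% with each library alone. The members called between the libraries were 25 at 1.5-fold, where 17.8% of all models were called, and 0 at 4-fold. The members whose loss differed were 3 at a minimum of 10 points. The share of antisense reads that were lost in matched pairs was 49.2%. It became 72.2% with pairs matched within 5% and 72.3% without the pair of ACLKA6_011948 and ACLKA6_011949, both added after seeing the data. With each library alone it was 44.0% to 54.5%, within the tolerance by construction. The members with fewer reads without strand were 72 to 76 with each library alone. The differences between libraries need both. No paired analysis was possible because both libraries belong to a single group. Depth limits members with few lost reads: the loss of 10.5% of ACLKA6_005745 in replicate 2 rests on 4 reads, with a 95% Wilson interval of 4.17 to 24.1.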
